A study of Mus musculus with 6 samples.

Results

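Collagens and laminins, the main structural proteins of the extracellular matrix, are encoded by 55 of the 55492 genes in the expression table. They were chosen by gene symbol, under a rule set with earlier results of these data known. The rule took every symbol of a collagen chain (*Col*, a type number, *a* and a chain number) and every laminin alpha, beta or gamma chain. The set holds 44 collagen and 11 laminin chain genes. Of these, 19 encode basement membrane chains, 11 encode fibrillar collagens and 25 encode other collagens. They were measured by bulk RNA-seq of poly(A) RNA from cells that O4-targeting magnetic microbeads had pulled out of dissociated whole brains of 16-day-old mice. There were 3 wild type (WT) and 3 *Npc1*-/- libraries, described as biological replicates. Whether each library came from 1 mouse is not given in the sources used here. *Npc1*-/- mice lack the lysosomal cholesterol exporter NPC1 through the *Npc1* nih allele and were bred as hybrids of heterozygous BALB/cJ and C57BL6/J parents. No mouse of either genotype was treated. The O4 antigen is a lipid on the surface of late oligodendrocyte progenitors and immature oligodendrocytes, and the labels call the cells O4+ oligodendrocytes.

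Type IV collagen and laminins are the sheet-forming proteins of basement membranes. Laminins assemble from 1 alpha, 1 beta and 1 gamma chain outside the cell, type IV collagen forms the network beneath them, and nidogens, perlecan and agrin join both layers. In the brain such sheets wrap every blood vessel, where endothelial cells, pericytes and astrocyte endfeet deposit them, and line the pial surface, while fibrillar collagens are made mainly by fibroblasts of the meninges and of larger vessels. Oligodendrocyte lineage cells meet laminin through integrins and dystroglycan.

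Levels are given as scaled TPM, which is the deposited TPM (a transcript's share of all transcripts, corrected for its length) divided by a size factor of the sample (0.727 to 1.295). It is a level per transcript length, so genes can be compared with each other. Libraries held 40250000 to 50250000 fragments as read from the steps between low values, and at that depth 1 fragment on a transcript of 5000 bases was worth 0.00555 to 0.00743 TPM. *Npc1* itself stood at 45.5 to 53.3 TPM in WT and at 3.16 to 4.42 TPM in *Npc1*-/- samples. *Npc1*-/- replicate 3 was the only sample with *Xist* above 0.01 TPM, at 15.6 TPM, and with the Y-linked *Ddx3y* listed at 0. Values without that sample are given beside some of the results. Leaving it out moved the log2 fold change of some members away from 0 and that of others, such as *Lamb1* and *Col15a1*, toward 0. The 8 mature oligodendrocyte markers summed to between 175516 and 435960 scaled TPM in the 6 samples, and the endothelial, mural and choroid plexus lists were well above 0 in every sample too. In bulk RNA, fewer cells of a type and less RNA per cell cannot be told apart.

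*Col4a1* (ENSMUSG00000031502) and *Col4a2* (ENSMUSG00000031503) encode the chains of the type IV collagen found in nearly every basement membrane. They lie head to head on chromosome 8 of GRCm38, *Col4a1* from 11198423 to 11312826 on the minus strand and *Col4a2* from 11312805 to 11449287 on the plus strand, and their annotated ends overlap by 22 bases. Their promoter windows, taken from RefSeq (GRCm38.p6) as 250 bases before and 50 after the start of each gene, are shown because *Col4a2* was the member that passed the test, and the windows share 78 bases. The *Col4a1* window is chr8:11312777-11313076 read on the minus strand and the *Col4a2* window is chr8:11312555-11312854 read on the plus strand. Capitals mark the CCAAT box (CCAAT, or ATTGG on the other strand) and the GC box (GGGCGG or CCGCCC).
Col4a1 promoter: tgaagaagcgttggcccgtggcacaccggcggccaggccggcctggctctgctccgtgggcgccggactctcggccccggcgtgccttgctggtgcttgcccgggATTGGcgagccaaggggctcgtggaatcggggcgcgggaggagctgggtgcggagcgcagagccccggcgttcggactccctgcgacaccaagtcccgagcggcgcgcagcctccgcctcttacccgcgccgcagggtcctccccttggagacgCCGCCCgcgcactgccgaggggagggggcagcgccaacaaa
Col4a2 promoter: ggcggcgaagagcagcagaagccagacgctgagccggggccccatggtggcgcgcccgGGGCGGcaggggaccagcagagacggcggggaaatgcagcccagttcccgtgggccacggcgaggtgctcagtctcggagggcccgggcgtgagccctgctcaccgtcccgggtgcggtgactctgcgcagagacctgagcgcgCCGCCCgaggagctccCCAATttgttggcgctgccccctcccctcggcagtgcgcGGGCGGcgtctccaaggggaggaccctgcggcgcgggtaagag

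The *Col4a1* window held 1 CCAAT box and 1 GC box, the *Col4a2* window 1 CCAAT box and 3 GC boxes, and neither held a TATA box (TATAAA or TTTATA). The GC box of the *Col4a1* window lies in the shared bases and is the same site as 1 of the 3 in the *Col4a2* window, read on the other strand. Within each window no searched motif overlaps another one. G and C made up 74.0% and 73.7% of their bases, against a median of 52.7% over all 32851 RefSeq promoter windows. CCAAT, GC and TATA boxes occurred in 37.4%, 35.7% and 13.6% of all windows. Of the members, 40 had windows, 44 in all, and these motifs were found in 14, 26 and 5 of them.

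Of the 55 members, 44 had a mean TPM of at least 0.5 over the 6 samples and were tested with the other genes. The remaining 11, with means from 0.0117 to 0.497 TPM, were 3 basement membrane genes, 1 fibrillar gene and 7 other collagens. Among the tested members, 42 reached this limit in each genotype and 2, *Col6a6* and *Col28a1*, in WT only. By limma with Benjamini-Hochberg adjustment over 15245 genes, a gene was called where the adjusted p was below 0.05 and the log2 fold change was 0.1 or more in size. *Col4a2* was the 1 member called lower in *Npc1*-/- cells and 0 members were called higher, against 0.413% of all tested genes called lower and 0.4% called higher. At an adjusted p below 0.1 there were 13 members lower and 1 higher (*Col20a1*), against 5.13% and 3.82% of all genes. At an unadjusted p below 0.05 there were 20 lower and 2 higher (*Col20a1* and *Col9a2*), against 11.6% and 10.6%.

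The 3 values of *Npc1*-/- lay below the 3 values of WT in 19 members and above them in 2 (*Col11a2* and *Col20a1*), against 14.2% and 13.3% of all genes. The log2 fold change was below 0 in 37 of the 44, against 49.0% of all genes, with a median of −0.48 where that of all genes was 0.01. The number of members called depended on single samples: it was 0 without any 1 of 5 samples in turn (WT replicates 1, 2 and 3 and *Npc1*-/- replicates 1 and 2), and 8 without *Npc1*-/- replicate 3, against 2.43% of all genes called lower and 0.695% called higher without that sample. These 8, all of the basement membrane and all lower, were *Col4a1*, *Col4a2*, *Col4a5*, *Lama1*, *Lama2*, *Lama5*, *Lamb2* and *Lamc3*.

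**Figure D1:**
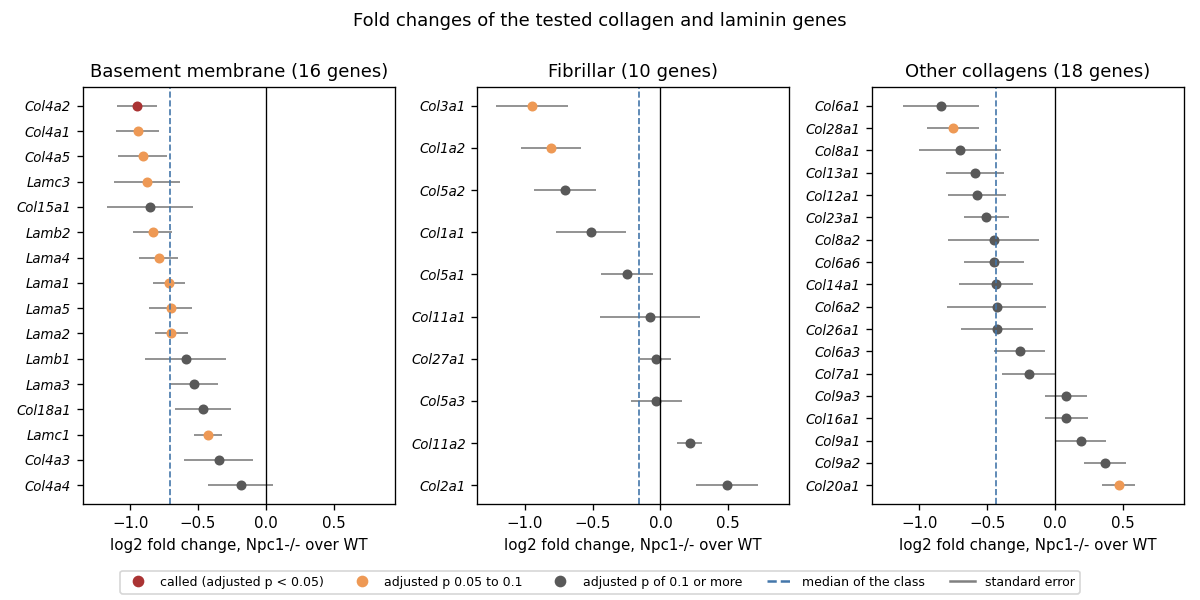
Log2 fold change (x axis, *Npc1*-/- over WT, with its standard error) of each of the 44 tested members, in 3 panels by class, with the class median as a dashed line. All 16 basement membrane genes lie left of 0 around a median of −0.71, while the fibrillar genes (median −0.16) and other collagens (median −0.43) reach from −0.95 and −0.84 up to 0.49 and 0.47.

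All 16 tested basement membrane genes had a log2 fold change below 0 (median −0.71, from −0.95 to −0.19). In 11 of them the genotypes did not overlap, and 10 had an adjusted p below 0.1. Among the 10 tested fibrillar genes, 8 were below 0 (median −0.16) and 2 had an adjusted p below 0.1. Among the 18 tested other collagens, 13 were below 0 (median −0.43), with 1 adjusted p below 0.1 in each direction. The difference between classes was not tested.

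In type IV collagen, *Col4a1* had the highest level of any basement membrane gene, at 339.6, 249 and 234 scaled TPM in WT replicates 1, 2 and 3 and 146, 125 and 151 in *Npc1*-/- replicates 1, 2 and 3. *Col4a2* stood at 183, 145 and 143 in WT and at 78.1, 70.2 and 94.1 in *Npc1*-/-. Every *Npc1*-/- sample was well below the lowest WT sample for both genes, and WT replicate 1 was the highest of the 6. The *Npc1*-/- mean was 0.513 of the WT mean for *Col4a1* and 0.516 for *Col4a2*. *Col4a2* fell by 0.95 on the log2 scale, with a standard error of 0.15 and a limma adjusted p of 0.0443. *Col4a1* fell short of a call, with −0.95 on the same scale, a standard error of 0.16 and an adjusted p of 0.0503. *Col4a2* lost its call without a filter (adjusted p = 0.107), without a trend in the variance (0.0715) and without any 1 of the same 5 samples (0.0710 to 0.193).

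The balance of both chains did not separate the genotypes. The ratio of *Col4a1* to *Col4a2* averaged 1.74 in the WT samples (SD 0.110, n = 3) and 1.75 in the *Npc1*-/- samples (SD 0.135, n = 3), with overlapping ranges. *Col4a5* (X-linked, with *Col4a6* the chain pair of epithelial and smooth muscle basement membranes) stood at 7.59, 6.86 and 6.19 in WT and 3.78, 2.51 and 4.17 in *Npc1*-/- (log2 fold change −0.91, standard error 0.18, adjusted p = 0.0584). Its groups did not overlap either. *Col4a3* and *Col4a4*, the chains of the kidney glomerulus and lung alveolus, were low, at 0.374 to 1.801 scaled TPM over the 6 samples, with log2 fold changes of −0.35 and −0.19 (adjusted p = 0.482 and 0.704). *Col4a1* and *Col4a2* together made up nearly all of the type IV signal: in WT they took 62.1% and 35.7% of it on average, and in *Npc1*-/- 62.1% and 35.6%.

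The laminin beta and gamma chains came next in level. *Lamb2*, the main beta chain of mature vessels, stood at 76.8, 79.4 and 81.3 in WT and 38.7, 39.9 and 55.8 in *Npc1*-/- (log2 fold change −0.83, standard error 0.14, adjusted p = 0.0526). *Lamc1*, the gamma chain shared by most laminins, stood at 59.7, 53.2 and 54.5 in WT and 37.1, 41.6 and 45.8 in *Npc1*-/- (−0.43, standard error 0.10, adjusted p = 0.0767). For both genes the WT samples lay close together, no *Npc1*-/- sample reached them, and *Npc1*-/- replicate 3 was the nearest. Without that sample *Lamb2* had a log2 fold change of −1.004 (limma adjusted p = 0.0187) and *Lamc1* one of −0.50 (0.0582). *Lamb1*, the other widespread beta chain, stood at 14.8, 10.1 and 7.46 in WT and 9.79, 6.23 and 4.95 in *Npc1*-/- (−0.59, standard error 0.30, adjusted p = 0.301). Its genotypes overlapped, and in each the level was highest in replicate 1. Without *Npc1*-/- replicate 3 the *Lamb1* log2 fold change was nearer to 0, at −0.39 (limma adjusted p = 0.506). *Lamc3*, a gamma chain of more restricted use, stood at 7.18, 6.36 and 6.55 in WT and at 2.56, 2.83 and 5.39 in *Npc1*-/- (−0.88, standard error 0.24, adjusted p = 0.0980), so *Npc1*-/- replicate 3 stood apart from the other *Npc1*-/- samples. Without it the *Lamc3* log2 fold change was −1.18 (limma adjusted p = 0.0257).

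The alpha chains decide which receptors a laminin binds, and all 5 were expressed. *Lama5*, an alpha chain of endothelial basement membranes, stood at 17.0, 16.6 and 19.1 in WT and 8.71, 10.2 and 13.3 in *Npc1*-/- (log2 fold change −0.70, standard error 0.16, adjusted p = 0.0662). *Lama4*, the other endothelial alpha chain, stood at 16.3, 14.1 and 11.1 in WT and 7.65, 7.39 and 8.08 in *Npc1*-/- (−0.79, standard error 0.14, adjusted p = 0.0546). Both were lower in every *Npc1*-/- sample than in any WT sample. *Lama2*, the chain of the glial side of the vessel wall, whose loss causes a muscular dystrophy with white matter changes, stood at 7.60, 7.35 and 7.05 in WT and 3.80, 4.27 and 4.996 in *Npc1*-/- (−0.70, standard error 0.12, adjusted p = 0.0526). *Lama1*, found in the pial basement membrane, stood at 4.28, 3.65 and 4.07 in WT and 2.21, 2.304 and 2.19 in *Npc1*-/- (−0.72, standard error 0.12, adjusted p = 0.0503). *Lama3*, best known from epithelia, stood at 3.11, 4.94 and 3.30 in WT and 2.44, 2.40 and 2.41 in *Npc1*-/- (−0.53, standard error 0.18, adjusted p = 0.138). Again no *Npc1*-/- value reached the WT range for any of these genes. *Lama3* lies 97418 bases from *Npc1* on chromosome 18, and whether that distance bears on its level was not tested.

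**Figure D2:**
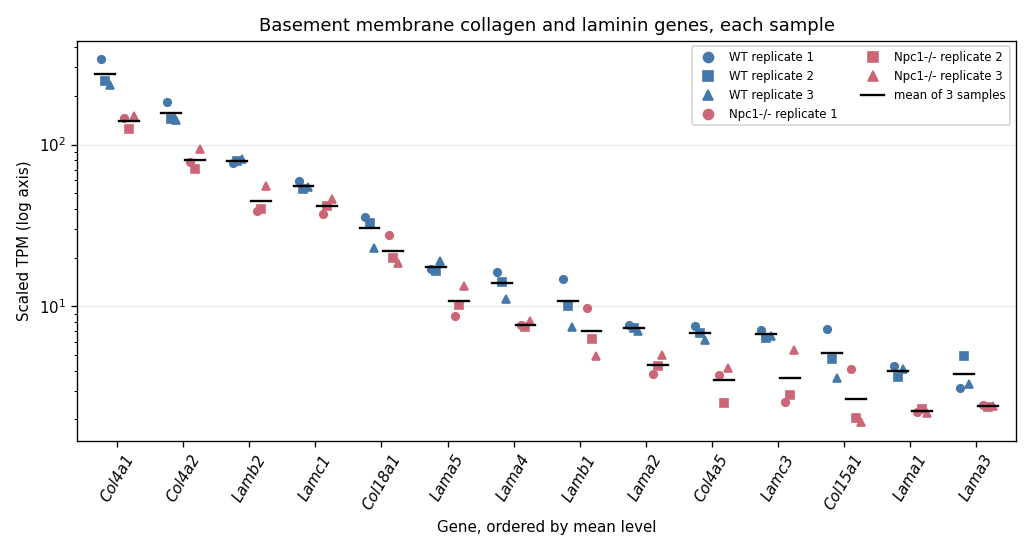
Scaled TPM (y axis, log) of the 14 basement membrane genes with a mean of at least 2, in each WT (blue) and *Npc1*-/- (red) sample, with bars at the mean of 3 samples. The *Npc1*-/- points sit below the WT points without overlap for every gene but *Col18a1*, *Lamb1* and *Col15a1*.

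The sum of the alpha chains separated the genotypes, and the share of each chain did not. Summed over the 5 genes, alpha chains averaged 46.5 scaled TPM in WT (SD 1.81, n = 3) against 27.5 in *Npc1*-/- (SD 3.18, n = 3). Among the shares, *Lama5* took 37.8% in WT (SD 4.30, n = 3) against 38.8% in *Npc1*-/- (SD 3.96, n = 3), and *Lama2* averaged 15.8% in both. Beta chains summed to 90.2 ± 1.68 in WT and 51.9 ± 7.82 in *Npc1*-/-, with *Lamb2* taking 79.7% to 91.7% of them over the 6 samples. Gamma chains summed to 63.0 ± 4.004 in WT and 45.3 ± 5.74 in *Npc1*-/-. *Lamc3* took 10.6% of the gamma chains in WT replicates 1 and 2 and 10.7% in replicate 3, against 6.41%, 6.36% and 10.5% in *Npc1*-/-. The last value nearly equalled WT, so this difference in share rests on *Npc1*-/- replicates 1 and 2. The ratio of *Lamb2* to *Lamc1* within samples separated the genotypes, at 1.29, 1.49 and 1.49 in WT and 1.04, 0.960 and 1.22 in *Npc1*-/-. *Col4a1* relative to *Lamc1* showed the same separation, at 5.69, 4.68 and 4.29 in WT and 3.92, 3.01 and 3.29 in *Npc1*-/-.

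**Figure D3:**
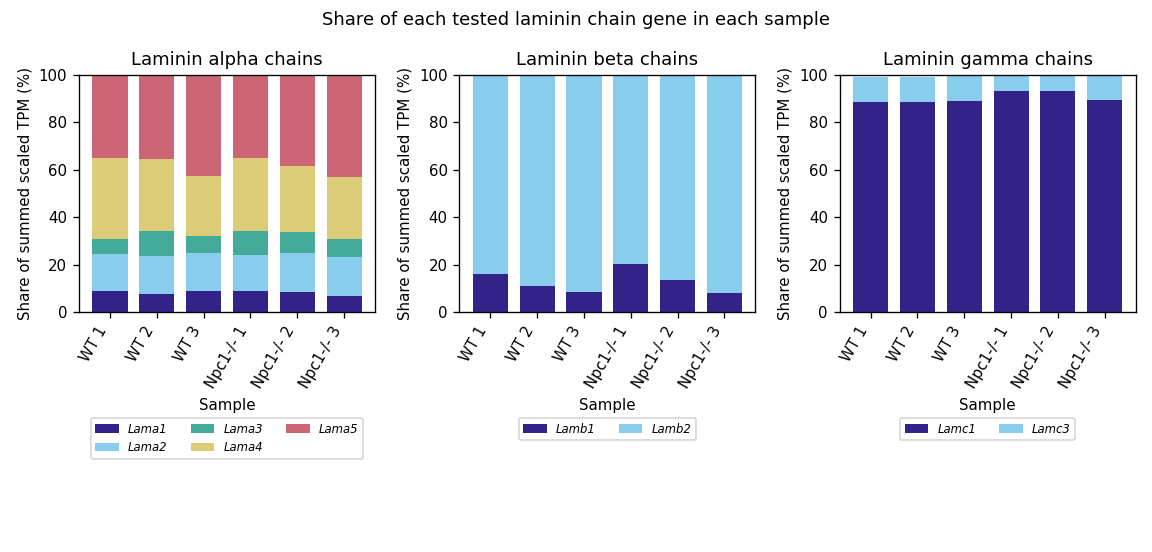
Share (y axis, percent of summed scaled TPM) of each tested laminin alpha, beta and gamma chain gene in each of the 6 samples, as stacked bars. The share is of all genes of the chain type, so bars end below 100% where genes under the limit of 0.5 TPM, which are not drawn, had a part. *Lamb2* and *Lamc1* dominate their chain type in every sample, and the *Lamc3* share is smaller in *Npc1*-/- replicates 1 and 2 (6.41% and 6.36%) than in the other samples.

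The multiplexins, collagens of the outer zone of basement membranes that carry endostatin-type fragments, overlapped between genotypes. *Col18a1* stood at 35.9, 32.7 and 22.9 in WT and 27.4, 20.0 and 18.4 in *Npc1*-/- (log2 fold change −0.46, standard error 0.21, adjusted p = 0.246). *Col15a1* stood at 7.20, 4.73 and 3.59 in WT and 4.10, 2.02 and 1.91 in *Npc1*-/- (−0.85, standard error 0.32, adjusted p = 0.174). Both were highest in replicate 1 of each genotype.

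No fibrillar collagen passed the test in either direction. *Col1a2* (chromosome 6, 4504814 to 4541544) and *Col1a1* (chromosome 11, 94936224 to 94953042) encode type I collagen, and *Col3a1* type III, the bulk collagens of connective tissue. *Col1a2* stood at 42.1, 35.1 and 28.1 in WT and 26.2, 15.2 and 18.8 in *Npc1*-/- (log2 fold change −0.81, standard error 0.22, adjusted p = 0.0944). *Col3a1* stood at 31.2, 30.3 and 16.4 in WT and 16.2, 11.3 and 11.2 in *Npc1*-/- (−0.95, standard error 0.27, adjusted p = 0.0994). Neither overlapped between genotypes, although for *Col3a1* the gap between WT replicate 3 and *Npc1*-/- replicate 1 was small. *Col5a2*, whose product is built into type I fibrils and whose gene is the neighbour of *Col3a1*, stood at 15.2, 22.5 and 13.1 in WT and 12.7, 9.12 and 8.45 in *Npc1*-/- (−0.70, standard error 0.23, adjusted p = 0.131). *Col1a1* overlapped, at 10.9, 11.5 and 7.10 in WT and 9.41, 5.16 and 5.88 in *Npc1*-/- (−0.51, standard error 0.26, adjusted p = 0.296). *Col5a1*, the partner chain of *Col5a2*, stood at 2.74, 2.32 and 1.89 in WT and 2.39, 1.78 and 1.49 in *Npc1*-/- (−0.25, standard error 0.19, adjusted p = 0.508) and overlapped too.

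Some fibrillar genes are better known from cartilage. *Col11a2* was the highest of the fibrillar class, at 69.2, 80.2 and 80.6 in WT and 91.6, 89.8 and 85.4 in *Npc1*-/- (0.22, standard error 0.09, adjusted p = 0.230). All its *Npc1*-/- values were above all WT values, by a small margin, and on TPM as deposited its log2 fold change was −0.16. *Col2a1*, which encodes type II collagen, stood at 3.53, 4.78 and 3.35 in WT and 6.85, 6.60 and 3.88 in *Npc1*-/- (0.49, standard error 0.23, adjusted p = 0.263). Its *Npc1*-/- replicate 3 lay within the WT range, and without that sample the log2 fold change was 0.73 (adjusted p = 0.0748). *Col27a1* stood at 4.90, 4.73 and 5.42 in WT and 4.91, 5.35 and 4.40 in *Npc1*-/- (−0.04, standard error 0.12, adjusted p = 0.894), with no separation. The low *Col11a1* and *Col5a3* ranged from 0.798 to 2.71 and from 1.22 to 1.98 over the 6 samples, with log2 fold changes of −0.08 and −0.03.

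Among the other collagens, those that sit on the surface of fibrils (FACIT collagens) held the highest level of any member outside the basement membrane. *Col9a3*, a chain of type IX collagen, stood at 216, 216 and 181 in WT and 256, 225 and 175 in *Npc1*-/- (log2 fold change 0.08, standard error 0.16, adjusted p = 0.813), with genotypes mixed. Its sign was negative on TPM as deposited (−0.29) and after quantile normalization (−0.13). *Col9a2*, another type IX chain, stood at 9.84, 14.2 and 10.7 in WT and 14.3, 16.7 and 13.9 in *Npc1*-/- (0.37, standard error 0.15, adjusted p = 0.212). *Col20a1* stood at 3.97, 4.64 and 4.83 in WT and 5.77, 7.01 and 6.39 in *Npc1*-/- (0.47, standard error 0.12, adjusted p = 0.0874). It was the member with the lowest adjusted p among those higher in *Npc1*-/-, and its genotypes did not overlap. *Col16a1* stood at 10.6, 11.96 and 7.92 in WT and 9.86, 11.5 and 10.7 in *Npc1*-/- (0.08, standard error 0.16, adjusted p = 0.805). Of the 7 tested FACIT genes, 5 had a log2 fold change above 0 (median 0.08).

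Collagen VI forms beaded filaments around cells. *Col6a2* stood at 14.3, 22.2 and 18.9 in WT and 11.2, 8.52 and 24.8 in *Npc1*-/- (log2 fold change −0.43, standard error 0.37, adjusted p = 0.552), and *Npc1*-/- replicate 3 was the highest of all samples. *Col6a1* stood at 8.13, 15.0 and 9.42 in WT and 4.58, 4.73 and 8.15 in *Npc1*-/- (−0.84, standard error 0.28, adjusted p = 0.139). Without *Npc1*-/- replicate 3 the adjusted p was 0.0790 for *Col6a2* and 0.0728 for *Col6a1*, and the *Col6a2* log2 fold change was −0.87. The type VIII chains, network collagens of vessels and of the cornea, overlapped between genotypes. *Col8a1* stood at 22.3, 16.8 and 13.8 in WT and 16.8, 7.59 and 8.85 in *Npc1*-/- (−0.70, standard error 0.30, adjusted p = 0.229), and *Col8a2* at 15.7, 9.32 and 7.43 in WT and 11.5, 5.97 and 5.81 in *Npc1*-/- (−0.45, standard error 0.33, adjusted p = 0.481). Both were highest in replicate 1 of each genotype. *Col28a1*, a collagen with von Willebrand factor domains, stood at 1.37, 0.949 and 0.934 in WT and 0.372, 0.409 and 0.523 in *Npc1*-/- (−0.75, standard error 0.19, adjusted p = 0.0818), without overlap and with *Npc1*-/- levels near the pseudocount of 0.5. The 9 remaining tested genes of this class ranged from a log2 fold change of −0.59 (*Col13a1*, a transmembrane collagen) to 0.19 (*Col9a1*), and none had an adjusted p below 0.1.

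**Figure D4:**
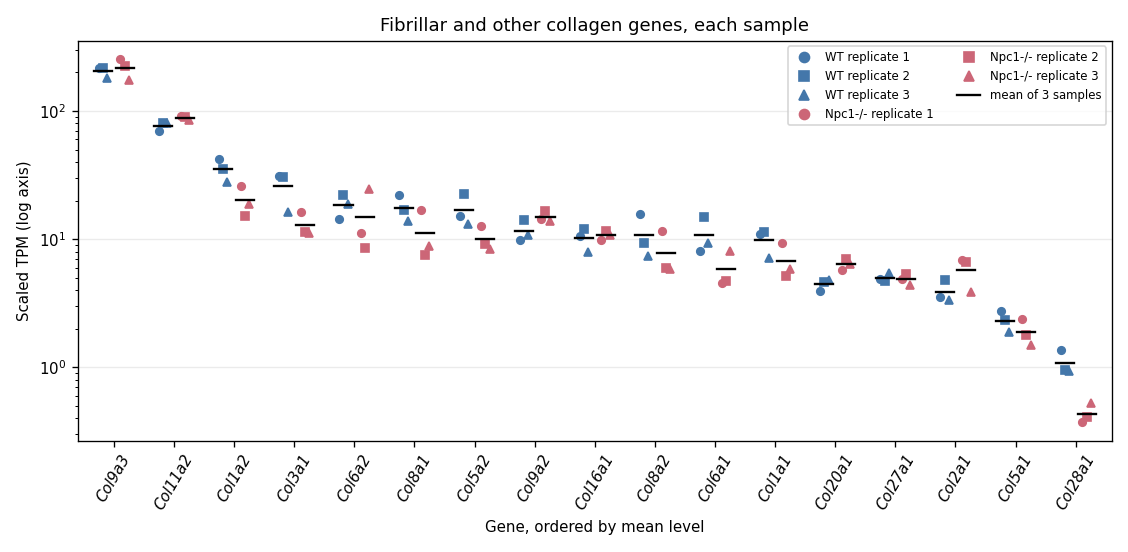
Scaled TPM (y axis, log) of the fibrillar and other collagen genes given by sample in the text, in WT (blue) and *Npc1*-/- (red), with bars at the mean of 3 samples. *Col9a3*, with mixed genotypes, and *Col11a2*, with its *Npc1*-/- points just above all WT points, are the highest, while the *Npc1*-/- points of *Col1a2*, *Col3a1*, *Col5a2* and *Col28a1* lie below all WT points.

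As a whole, member transcripts summed on average to 1166 scaled TPM in WT (SD 128, n = 3) against 837 in *Npc1*-/- (SD 55.3, n = 3). Basement membrane genes made up 60.5%, 54.6% and 58.4% of this sum in WT and 41.8%, 42.9% and 50.1% in *Npc1*-/-, so no *Npc1*-/- sample reached the WT range. The members outside the basement membrane summed to 511, 528 and 433 in WT and 522, 450.4 and 412 in *Npc1*-/-, which overlapped.

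Genes that act with the members were followed in 5 lists of 66 genes, of which 60 were tested. *Itga1*, the collagen-binding integrin alpha 1, and *Bcam*, a laminin alpha 5 receptor, were called lower, against 0.413% of all tested genes. *Itga1* stood at 17.5, 14.2 and 13.5 in WT and 7.06, 5.47 and 8.12 in *Npc1*-/- (log2 fold change −1.09, standard error 0.16, adjusted p = 0.0441). *Bcam* stood at 84.8, 72.6 and 71.9 in WT and 42.9, 39.7 and 49.7 in *Npc1*-/- (−0.79, standard error 0.12, adjusted p = 0.0427). Both calls were lost with no filter (adjusted p = 0.106 for *Itga1* and 0.104 for *Bcam*), without a trend in the variance (0.0678 and 0.0702) and without any 1 of the same 5 samples (0.0710 to 0.187 and 0.0710 to 0.193). No partner gene was called higher by limma, against 0.4% of all genes. At an adjusted p below 0.1 there were 10 lower and 0 higher, against 5.13% and 3.82% of all genes. At an unadjusted p below 0.05 there were 26 lower and 1 higher (*Ctsk*), against 11.6% and 10.6%. The log2 fold change was below 0 in 50 of the 60, against 49.0% of all genes, with a median of −0.39.

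All 9 other basement membrane components were below 0 (median −0.57), from *Ntn4*, a netrin that binds laminin (−0.89, adjusted p = 0.0684), to the perlecan gene *Hspg2* (−0.31, adjusted p = 0.133), and the nidogen *Nid1*, which links laminin to type IV collagen, had −0.71 (adjusted p = 0.0527). Of 13 tested receptors, 11 were below 0 and 6 had an adjusted p below 0.1, all lower: *Itga1*, *Bcam*, the laminin-binding integrins *Itga6* (−0.89) and *Itga7* (−0.69), their partner *Itgb1* (−0.38) and the collagen receptor kinase *Ddr2* (−0.66). The integrin *Itgb4*, a laminin receptor subunit, had the highest value of the receptors (0.59, adjusted p = 0.242). Of the enzymes and chaperones that fold and export collagen, 14 of 18 were below 0 (median −0.22), none had an adjusted p below 0.1, and they ranged from the collagen chaperone *Serpinh1* (−0.64, adjusted p = 0.181) to *P4hb* (0.23, adjusted p = 0.246). Of 9 tested genes of procollagen cleavage and cross-linking, 8 were below 0, from the cross-linking enzyme *Lox* (−0.94, adjusted p = 0.0687) to *Pcolce2* (0.12). Of 11 tested genes of matrix breakdown and its inhibitors, 8 were below 0 (median −0.15), from *Timp3* (−0.70, adjusted p = 0.237) to the collagen-degrading protease *Ctsk* (0.37, adjusted p = 0.203). Among them the protease inhibitor *Reck* had an adjusted p of 0.0887 (−0.62).

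Markers of vessel cells were lower alongside the basement membrane genes. All 10 endothelial markers had a log2 fold change below 0 (median −0.75), and their sum was 958 to 1128 scaled TPM in WT and 495 to 794 in *Npc1*-/-. All 10 mural markers, those of pericytes and smooth muscle, were below 0 as well (median −0.84), with sums of 771.5 to 1049.6 and 414 to 575. None of the 20 was at 0 in any sample, and *Notch3* was the 1 called lower (−1.07, adjusted p = 0.0429). All 8 fibroblast markers were below 0 (median −0.43, sums of 448 to 529 and 307 to 407), none with an adjusted p below 0.1. All 8 microglia markers were below 0 (median −1.003, sums of 186 to 291 and 87.6 to 159), and 1, *Tmem119*, was called lower. All 5 perivascular macrophage markers were below 0 too (median −1.56, sums of 14.2 to 25.0 and 3.55 to 5.27). Of these, 3 were called lower (*Mrc1*, *Cd163* and *F13a1*), against 0.413% of all genes. Of 8 astrocyte markers 7 were below 0 (median −0.40), with sums of 671 to 729.7 in WT that lay inside the 454 to 865 of *Npc1*-/-. Genotypes did not overlap in 5 lower markers and in 1 higher, *Gfap* (1.006), against 14.2% and 13.3% of all genes. The 3 with an adjusted p below 0.1, against 5.13% of all genes lower, were *Slc1a2* (−0.79), *Slc1a3* (−0.73) and *Gja1* (−0.81). Neuron markers went the other way, with 7 of 8 above 0 (median 0.19) and sums of 162 to 196 in WT and 177 to 220 in *Npc1*-/-. The 7 oligodendrocyte progenitor markers had a median of 0.02, with sums of 874 to 1045 and 888 to 1019.9. Of 6 markers of committed and immature oligodendrocytes 5 were below 0 (median −0.12), with sums of 3132 to 4348 in WT and 4128 to 6682 in *Npc1*-/-. The 8 mature oligodendrocyte markers had a median of 0.34, with 7 above 0. Their sums were 175516 to 247213 in WT and 221703 to 435960 in *Npc1*-/-, which overlapped.

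Relative to vessel markers the basement membrane genes did not separate the genotypes. Their sum over that of the 20 endothelial and mural markers was 0.360, 0.359 and 0.340 in WT and 0.406, 0.307 and 0.302 in *Npc1*-/-. Over the mural markers alone it was 0.747, 0.824 and 0.734 in WT and 0.873, 0.818 and 0.720 in *Npc1*-/-. Over the endothelial markers alone it was 0.695, 0.637 and 0.634 in WT and 0.758, 0.491 and 0.522 in *Npc1*-/-. In the joined and the endothelial ratio, *Npc1*-/- replicates 2 and 3 lay below all WT values. There the overlap rested on *Npc1*-/- replicate 1, the highest sample. For the laminin chains, the ratio to endothelial and mural markers was 0.0955, 0.111 and 0.109 in WT and 0.123, 0.106 and 0.105 in *Npc1*-/-. The summed type I and III genes *Col1a1*, *Col1a2* and *Col3a1* over the fibroblast markers overlapped between genotypes too, at 0.188, 0.145 and 0.111 in WT and 0.151, 0.103 and 0.0881 in *Npc1*-/-. For the whole fibrillar class the ratio to fibroblast markers leaned the other way, at 0.411, 0.368 and 0.342 in WT and 0.508, 0.481 and 0.349 in *Npc1*-/-, again with overlap. Over the endothelial and mural markers the fibrillar class averaged 0.0945 in WT and 0.142 in *Npc1*-/-, also with overlap. *Col11a2*, which was higher in *Npc1*-/-, weighed heavily in the fibrillar sum. It gave 69.2, 80.2 and 80.6 of 184, 195 and 159 in WT. In *Npc1*-/- it gave 91.6, 89.8 and 85.4 of 174, 148 and 142. The fibrillar ratios without *Col11a2* were not taken. The part of these cell types in the levels of the members was not tested further.

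**Figure D5:**
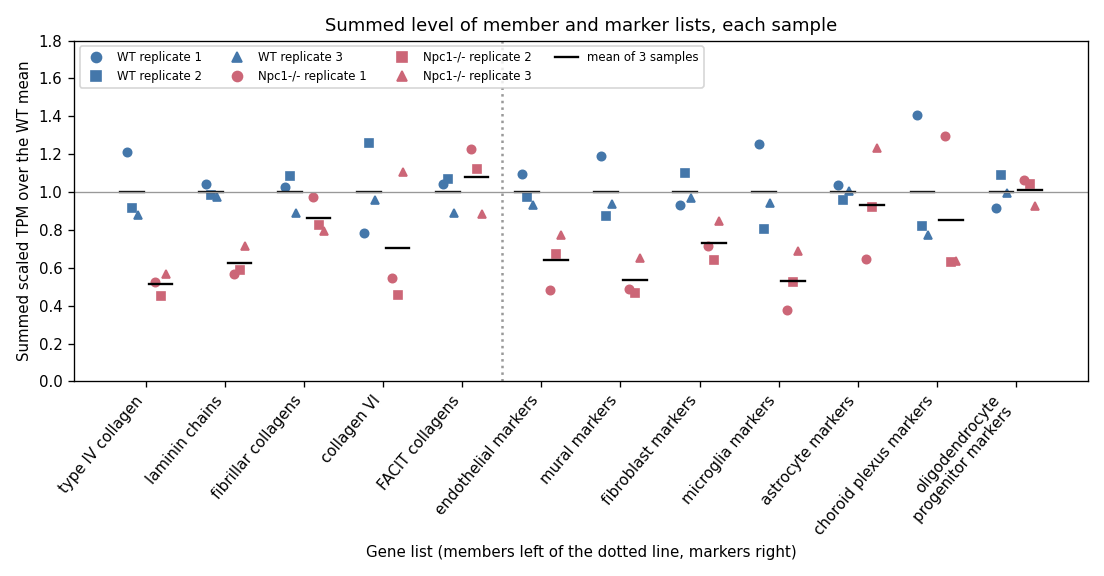
Summed scaled TPM of member lists (left of the dotted line) and marker lists (right), each divided by its WT mean (y axis), in each sample, with bars at the mean of 3. Type IV collagen and laminin chains average 0.515 and 0.624 of WT and the endothelial and mural markers 0.642 and 0.536, while FACIT collagens and oligodendrocyte progenitor markers lie around 1.

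Markers of the choroid plexus, the epithelium that makes cerebrospinal fluid, overlapped between genotypes: they summed to 5524, 3236 and 3039 in WT and 5088, 2471 and 2511 in *Npc1*-/-, and all 5 were highest in replicate 1 of both genotypes. The same held for 15 of the 44 tested members (34.1%), against 19.4% of all genes tested. Among them were *Col18a1*, *Col15a1*, *Lamb1*, *Col8a1* and *Col8a2*, 5 members whose genotypes overlapped. Whether choroid plexus tissue contributed to them was not tested.

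Members are long genes, with a median longest transcript of 5988 bases against 3189 over all genes. Over the 15230 tested genes with a length, longer genes tended to be lower in *Npc1*-/-. The Spearman correlation of the longest transcript with the log2 fold change was −0.265. The shares of all genes given above are not matched for length, and the part of length in the levels of the members was not tested. A smooth curve on the median transcript length of each gene, not the longest, was removed from each sample. That median was 647, 921 and 473 bases for *Col4a1*, *Col4a2* and *Lamb2*, whose longest transcripts have 6615, 6450 and 5629 bases. The fit therefore does not show how they stand after a correction for their longest transcripts. With the curve removed, 3 members were called lower, *Col4a1*, *Col4a2* and *Lamb2* (limma adjusted p = 0.0432, 0.0361 and 0.0350). Of all genes, 0.617% were called lower and 0.532% higher. All 16 basement membrane genes stayed below 0 (median −0.69). On TPM as deposited, where the median of all genes was −0.33, 10 basement membrane genes, 1 fibrillar gene and 2 other collagens were called lower, against 5.71% of all genes called lower and 0.354% called higher.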

How the data were processed

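RNA of 3 WT and 3 *Npc1*-/- samples of O4+ cells from mice 16 days old was sequenced. The authors deposited a table of TPM and a table of FPKM, each by gene and sample (both corrected for transcript length and library size), not normalized between samples. The submitters' processing notes name cutadapt 2.3, FastQC 0.11.8, STAR 2.7.8a, RSEM 1.3.3, MultiQC 1.7 and GRCm38, while the paper's methods name bbduk, STAR, featureCounts and DESeq2, and which gave the deposited values is not given in the sources used here, nor is the strand setting. No read counts were used here, so no count test was run. FPKM equalled TPM times a factor per sample (largest spread 0.0224%).

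TPM were divided by median-of-ratios size factors. The 15245 genes whose TPM averaged 0.5 or more entered the test as log2(scaled TPM + 0.5) with limma 3.58.1 (R 4.3.3, eBayes with trend, two-sided, WT against *Npc1*-/-, no block), with Benjamini-Hochberg adjustment. The pseudocount understates fold changes of low genes. Fragment depth was estimated from steps between low FPKM values. Simulated data, in which 200 of 15245 genes carried a log2 change of 1.5, gave back 166 of them (83%) and 2 unchanged genes. That change was larger than the log2 fold change of any member (the largest in size was −0.95, *Col4a2*). Recovery of changes as small as those of the members was not simulated. Tables and figures used matplotlib 3.10.9, pandas 2.3.3, numpy 2.4.6 and scipy 1.17.1 under Python 3.11.15. Genes were placed with GENCODE M21 (55227 identifiers matched), and 114 symbols have several identifiers.

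The members and lists were chosen with earlier results of these data known. Values of all samples are given for basement membrane and fibrillar genes with a mean of at least 2 scaled TPM, for other collagens with at least 5, and for members with an adjusted p below 0.1. Partner genes are named where called, at an adjusted p below 0.1, or as the extremes of their list. The alternatives were quantile normalization, FPKM, unscaled TPM, a pseudocount of 0.1 or 1, no filter, a mean TPM of at least 5, eBayes without trend or robust, a replicate block, a length curve (loess, span 0.3) and leaving out each sample.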

Additional observations from a re-analysis of the deposited data

How the results depend on the processing

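With 3 samples a group, single samples decided how many genes passed the test. Leaving out each sample in turn gave 5 to 477 genes called (124 with all samples), the lowest without *Npc1*-/- replicate 2 and the highest without *Npc1*-/- replicate 3. It gave 0 to 8 members called and 0 to 8 partner genes called, 14 to 27 members at an unadjusted p below 0.05, and 21 to 31 members without overlap between genotypes. Shares of all genes are not given here for the counts at an unadjusted p and without overlap. Groups also separate more easily with a sample fewer, so these counts are not read further. Class medians ranged from −0.77 to −0.67 (basement membrane), −0.38 to −0.11 (fibrillar) and −0.58 to −0.23 (other collagens). For most of these shifts the cause was not tested.

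The numbers of genes, members and partner genes called were 924, 13 and 13 on TPM as deposited, 240, 3 and 4 after quantile normalization, 21, 0 and 0 with no filter, 447, 6 and 4 at a mean TPM of at least 5 (fewer genes tested), and 42, 0 and 0 without a trend. Of the 924, 54 were higher and 870 lower, against 61 and 63. Members called were 2 with a pseudocount of 0.1 and 3 with the length curve. At a mean TPM of at least 5, where fewer members were tested, 14 did not overlap, and the share of all genes is not given here. The class medians on TPM as deposited were −1.05, −0.46 and −0.73, and at a mean TPM of at least 5 the fibrillar median was −0.61 and that of the other collagens −0.17. Every basement membrane gene tested was below 0 in all 18 fits (11 genes at a mean TPM of at least 5, and the same 16 in the others).

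Under the replicate block 2011 genes (868 lower, 1143 higher), 18 members (17 lower, 1 higher) and 22 partner genes were called. Deviations of same-numbered samples correlated at 0.414, 0.0602 and 0.326, and each sample correlated best with its own number, a hint from the data and not the design. The samples are taken to share only a number.

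Among the 31 members given by sample, signs reversed for 4 in at least 1 alternative, and among the other 13 tested members for 3 (*Col5a3*, *Col9a1* and *Col11a1*). On TPM as deposited, *Col11a2* was at −0.16, *Col9a3* at −0.29 and *Col16a1* at −0.27. After quantile normalization *Col27a1* was at 0.0072 and *Col9a3* at −0.13, and with the length curve *Col27a1* was at 0.082. Leaving out single samples, *Col27a1* ranged from −0.10 to 0.026 (above 0 without WT replicate 3 or *Npc1*-/- replicate 3), *Col9a3* from −0.038 to 0.23 (below 0 without *Npc1*-/- replicate 1 or WT replicate 3) and *Col16a1* from −0.080 to 0.20 (below 0 without WT replicate 3).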

Other observations

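Several members are neighbours on the same chromosome, and neighbours did not always share a sign. *Col3a1* and *Col5a2* lie 24614 bases apart, with log2 fold changes of −0.95 and −0.70. *Lama5*, *Col9a3* and *Col20a1* lie along chromosome 2, *Lama5* 371930 bases from *Col9a3* and *Col9a3* 364345 bases from *Col20a1*, with log2 fold changes of −0.70, 0.08 and 0.47.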
